A study of Mus musculus with 51 samples.

Results

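The Hox genes of the 4 mouse clusters were followed through the differentiation of embryonic stem cells into cardiac mesoderm and through the loss of *Smad4*, *Eomes* or *T*. The members were the 38 protein-coding genes named Hoxa, Hoxb, Hoxc or Hoxd with a number among the 24538 genes listed in every table: 10 of the HoxA cluster, 10 of HoxB, 9 of HoxC and 9 of HoxD. They were chosen by name, not by level. RNA-seq had been made from 18 samples in 14 groups. F1G4 wild-type (WT) cells were sampled as aggregates before Bmp4 (ES) and on days 1, 2 and 3 in medium with 20 ng/ml Bmp4 on fibronectin, with 2 samples per stage. The 3 mutant lines were each sampled once on day 2 and once on day 3 of the same treatment: the *Eomes* knockout (KO) and the *T* (Brachyury) KO, made from F1G4 by paired nicking with CRISPR, and the Eomes/T dKO, made from the Eomes KO line and thus lacking both genes. In these lines the deletion took out the promoter of the targeted gene with its first exon, and each line was 1 clone. A separate line with floxed *Smad4* (129S/SvEvxC57BL/6), called Smad4 WT, and its clone with the first *Smad4* exon excised by Cre, Smad4 KO, were sampled once each on days 1 and 2 of Bmp4. All lines had been kept on mitotically inactive fibroblast feeder cells, which were removed before the differentiation.

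Hox proteins are homeodomain transcription factors, encoded in clusters whose gene order matches the order in which the genes come on along the body axis. The genes are numbered by paralog group. Low numbers (called anterior here, groups 1 to 3, 7 members) are expressed early and up to the hindbrain, groups 4 to 8 (central, 15 members) in the neck and trunk, and groups 9 to 13 (posterior, 16 members) in the lower trunk, the tail and the limbs. In the gastrulating embryo the first Hox transcripts appear in the primitive streak, where *Eomes* and *T*, both T-box transcription factors, specify mesoderm and endoderm. Bmp4 reaches its targets through Smad proteins, with Smad4 as the shared partner. Wnt, Fgf and Cdx factors and retinoic acid are known inducers of Hox genes, and Polycomb complexes keep silent clusters shut.

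Only *Hoxb1*, *Hoxb2*, *Hoxa2* and *Hoxa5* exceeded 1 FPKM in any group. FPKM is the number of fragments per kilobase of transcript, scaled to the mapped fragments of a library. In ES, in WT on days 1 and 2 and in every Smad4-line group the highest member was another gene, *Hoxd13*. *Hoxb1*, which patterns the fourth rhombomere of the hindbrain, lies at chr11:96365746-96368254 on the plus strand (GRCm38.p6, RefSeq). *Hoxb2* lies beside it at chr11:96351632-96354020 on the same strand, and its exons overlap the antisense noncoding gene *Hoxb3os*. *Hoxa2*, the selector gene of the second pharyngeal arch, lies at chr6:52162417-52164831 on the minus strand. *Hoxa5*, which acts in the neck and lung, lies at chr6:52201754-52204587 on the same strand. The 250 bases before a RefSeq transcript start are shown for 3 of the 4 genes, 5′ to 3′ on the gene's strand. For *Hoxb1* this start lies a few bases inside the gene's outermost start. These genes were higher than WT in the Eomes KO and the dKO on day 2. They parted in direction from the WT mean in the dKO on day 3, which is why the windows are shown. Capitals mark a match, on either strand, to TGATNNAT, a core bound by Hox proteins together with their partner Pbx.
Hoxb1, chr11:96365508-96365757: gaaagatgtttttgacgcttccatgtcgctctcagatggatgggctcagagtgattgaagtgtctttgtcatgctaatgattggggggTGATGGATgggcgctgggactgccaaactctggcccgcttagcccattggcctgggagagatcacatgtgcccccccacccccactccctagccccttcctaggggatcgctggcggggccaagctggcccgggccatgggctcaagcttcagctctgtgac
Hoxa2, chr6:52164832-52165081: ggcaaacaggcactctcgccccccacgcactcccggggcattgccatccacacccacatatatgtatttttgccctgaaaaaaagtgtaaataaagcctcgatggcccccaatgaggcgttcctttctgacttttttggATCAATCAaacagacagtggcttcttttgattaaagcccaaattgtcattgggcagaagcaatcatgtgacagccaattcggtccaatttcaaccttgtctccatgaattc
Hoxa5, chr6:52204588-52204837: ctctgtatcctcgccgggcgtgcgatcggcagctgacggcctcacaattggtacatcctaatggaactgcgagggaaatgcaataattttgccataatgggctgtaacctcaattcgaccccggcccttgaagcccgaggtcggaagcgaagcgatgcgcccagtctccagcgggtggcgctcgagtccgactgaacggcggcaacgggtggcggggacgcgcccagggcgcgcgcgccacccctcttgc
The *Hoxb1* and *Hoxa2* windows each held this core and the *Hoxa5* window did not. GC content was 59.2% for *Hoxb1*, 46.4% for *Hoxa2* and 63.6% for *Hoxa5*.

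Over 24 promoter entries found for 22 members, TGATNNAT occurred in 4, against 7.68% of all 32851 promoters. The T-box core AGGTGT occurred in 3 of the 24, against 11.8% of all promoters. The retinoic acid receptor core AGGTCA occurred in 6, against 14%, and the Cdx core TTTATG in 5, against 10.8%. Both strands were searched in each case. These are matches of letters only, and none of the 3 printed windows held any of the last 3 motifs.

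Each condition had 1 FPKM value per gene, so no spread between replicates and no test was available for the mutants. A gene was called where it exceeded 1 FPKM in either of the groups compared and differed by more than 2-fold. Low values of most single-transcript genes (79.3% to 82.2% of those checked in a column) were whole multiples of a fixed step. This gave back the number of sequenced fragments for 32 of the 38 members. For 10 of them, among them *Hoxb2*, *Hoxa4* and *Hoxd13*, it rested on a transcript length fitted within 15% of the RefSeq one. Another 3 had no fragment in a 1-library group. The steps showed 1 library behind each mutant and each Smad4-line value and 2 libraries, here named A and B at each stage with no order, behind each F1G4 WT value. Legends in the study describe its expression heatmaps, mutants included, as averages of 2 replicates, while the labels give 1 RNA sample per mutant group. A single fragment on a transcript of 1 kb was worth 0.0267 FPKM (T KO on day 3) to 0.0553 FPKM (T KO on day 2) in the 1-library groups. Intervals given below are 95% Poisson intervals of the fragment number. They cover counting error only, as fragments amplified by PCR without molecular identifiers are not independent molecules. The WT libraries of a stage were not alike: among genes with 20 to 400 fragments, 11.1% differed more than 2-fold between A and B in ES, 20.5% on day 1, 21.9% on day 2 and 31.1% on day 3. In such bulk samples fewer cells of a type and less RNA per cell cannot be told apart.

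The targeted genes were checked first. *Eomes* was at 9.5 and 19.4 FPKM in WT on days 2 and 3, at 2.42 and 0.276 FPKM in the Eomes KO, and at 1.24 and 0.346 FPKM in the dKO. *T* was at 43.5 and 320 FPKM in WT, at 6.64 and 3.00 FPKM in the T KO, and at 2.77 and 1.93 FPKM in the dKO. *Smad4* was not lower in the library labelled Smad4 KO, with 39.4 against 33.8 FPKM on day 1 and 46.8 against 39.3 FPKM on day 2. Loss of the first exon alone cannot be read from a value over the whole gene.

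Hox transcripts were scarce at every stage. The summed level of the 38 members was 0.764 FPKM in ES, 2.34 FPKM on day 1, 1.9 FPKM on day 2 and 10.8 FPKM on day 3 in WT. On day 2 the sum was 13.6 FPKM in the Eomes KO, 7.34 FPKM in the T KO and 14.6 FPKM in the dKO. On day 3 it was 5.73 FPKM in the Eomes KO, 3.44 FPKM in the T KO and 17.6 FPKM in the dKO. The sums of all 3 mutant lines thus exceeded WT on day 2, and on day 3 that of the dKO exceeded the WT mean. Over the 31 members with fragments known in every group, the WT day 3 sum was 17 FPKM in library A and 3.69 FPKM in library B, the 2 WT libraries of that day, against 5.18, 2.98 and 16 FPKM in the Eomes KO, the T KO and the dKO. The T KO sum was below both libraries and the other sums lay between them. In the Smad4 line the sum was 2.92 FPKM in WT and 1.85 FPKM in KO on day 1, and 1.83 and 0.685 FPKM on day 2. Each table of WT and mutant was normalized separately, so levels from different tables are set side by side and ratios are taken within a table. The WT columns of the Eomes, T and dKO tables were the time course values of that day times 0.989 to 1.04, so the 3 mutant comparisons of a day share their 2 WT libraries and are not independent of each other.

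**Figure D1:**
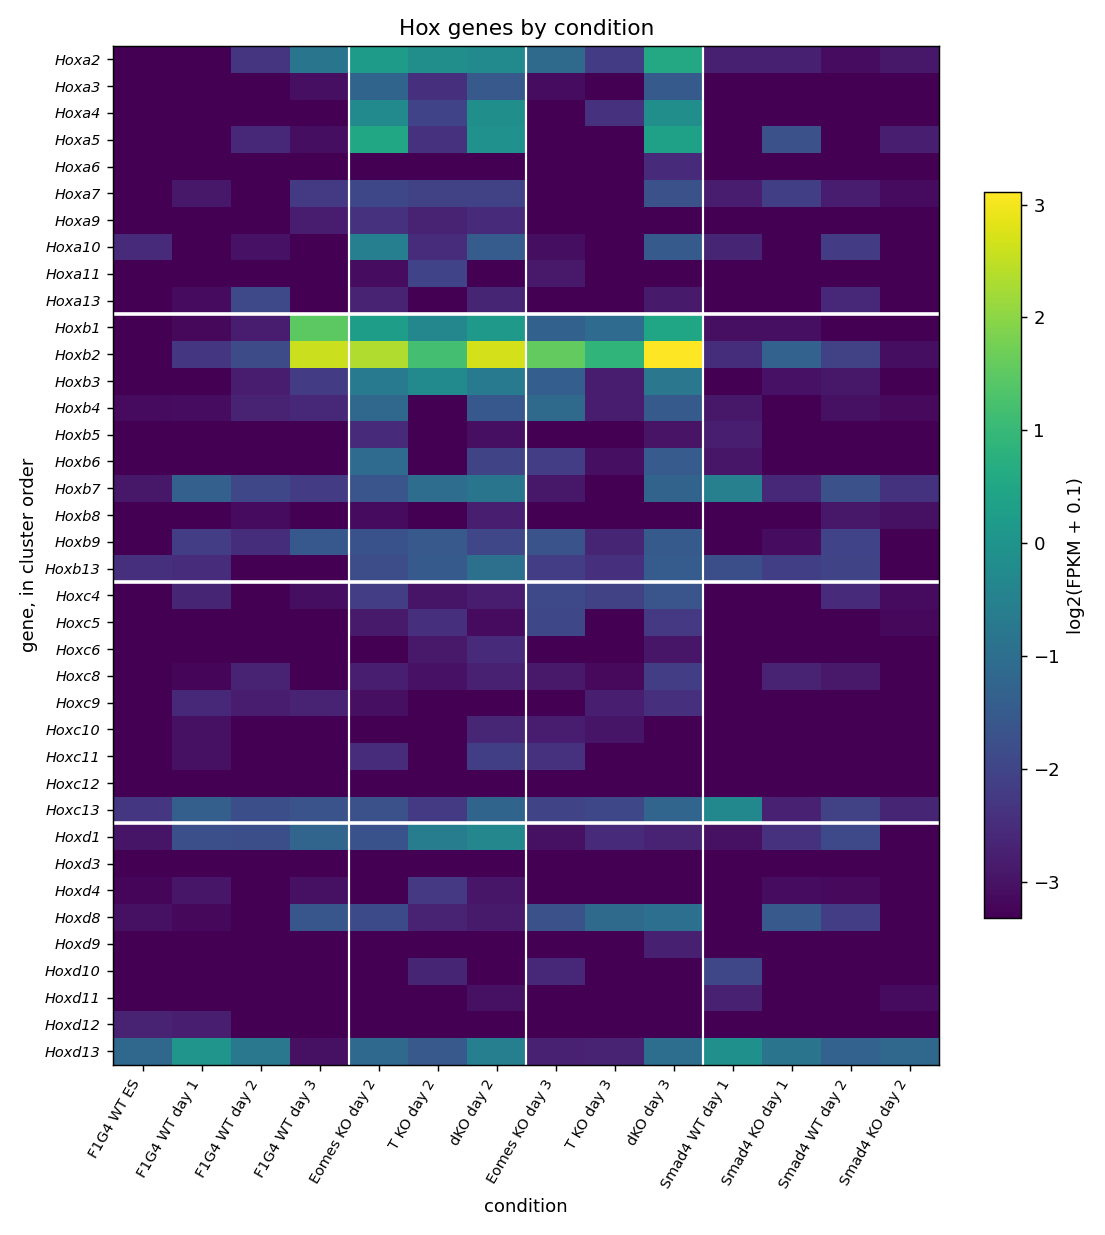
FPKM of the 38 Hox genes (rows, by cluster and paralog group) in the 14 groups (columns). *Hoxb2* has the highest value in every column of the 3 mutant lines, up to 8.52 FPKM in the dKO on day 3, and among these columns *Hoxa5* exceeds 0.1 FPKM in the Eomes KO on day 2 and in the dKO on both days.

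Of the other members, 22 peaked between 0.1 and 1 FPKM, 10 did not exceed 0.1 FPKM in any group, and *Hoxc12* and *Hoxd3* were listed at 0 throughout. In WT on day 3, 2 members exceeded 1 FPKM. In the Eomes KO, the T KO and the dKO 4, 1 and 2 did on day 2, and 1, 1 and 4 on day 3. The 10 that stayed at or under 0.1 FPKM were *Hoxa6*, *Hoxa9*, *Hoxb5*, *Hoxb8*, *Hoxc6*, *Hoxc9*, *Hoxc10*, *Hoxd9*, *Hoxd11* and *Hoxd12*. Of the 22, those with their highest value in the dKO were *Hoxa4* (0.818 FPKM), *Hoxd1* (0.692 FPKM), *Hoxb13* (0.416 FPKM) and *Hoxc11* (0.128 FPKM) on day 2, and *Hoxd8* (0.410 FPKM), *Hoxb9* (0.256 FPKM), *Hoxc4* (0.224 FPKM), *Hoxa7* (0.203 FPKM) and *Hoxc8* (0.125 FPKM) on day 3. In the Eomes KO they were *Hoxa10* (0.586 FPKM), *Hoxb6* (0.374 FPKM) and *Hoxa3* (0.319 FPKM) on day 2 and *Hoxb4* (0.367 FPKM) and *Hoxc5* (0.165 FPKM) on day 3, and in the T KO on day 2 *Hoxb3* (0.730 FPKM), *Hoxa11* (0.145 FPKM) and *Hoxd4* (0.108 FPKM). These were 17 of the 22. The 22 had been picked by the same highest value, and no share over all genes was taken. Mutant columns hold 1 library and F1G4 WT columns a mean of 2, so a high value by counting error is likelier in the former. The number is therefore a description only. The other 5 were highest in unmutated cells: *Hoxd13* (0.928 FPKM, WT day 1), *Hoxa13* (0.167 FPKM, WT day 2), and in Smad4 WT on day 1 *Hoxc13* (0.696 FPKM), *Hoxb7* (0.600 FPKM) and *Hoxd10* (0.160 FPKM). These 5 were posterior genes except *Hoxb7*.

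Between ES and day 3 of Bmp4, the HoxB genes *Hoxb1* and *Hoxb2* went from no fragment to the highest Hox levels of WT. *Hoxb1* was at 0 FPKM in ES, 0.00935 FPKM on day 1, 0.0437 FPKM on day 2 and 2.71 FPKM on day 3. *Hoxb2* was at 0, 0.101, 0.178 and 5.95 FPKM at these stages. Day 3 exceeded day 2 by 62.0-fold for *Hoxb1* and by 33.4-fold for *Hoxb2*. These were the 2 members called higher on day 3 against day 2 and also on day 3 against ES, and no member was called lower in either. Without WT day 3 library A *Hoxb1* was no longer called in either comparison, as its value in library B was under 1 FPKM, and *Hoxb2* was. Of all genes 2.85% were called higher and 1.89% lower on day 3 against day 2, and 8.71% higher and 5.92% lower on day 3 against ES. No member was called on day 1 against ES, where 3.46% of all genes were called higher and 2.62% lower. None was called on day 2 against day 1, where 3.29% were called higher and 1.9% lower. No member exceeded 1 FPKM in WT before day 3, so none could be called in these earlier comparisons.

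The day 3 values of both HoxB genes came largely from library A. *Hoxb1* had 278 fragments (4.61 FPKM) in library A and 44 fragments (0.801 FPKM) in library B. *Hoxb2* had 486 fragments (10.3 FPKM) in A and 70 fragments (1.63 FPKM) in B. *Hoxa2*, with a mean of 0.466 FPKM, had 48 fragments in A and 0 in B. The libraries thus differed by 5.75-fold for *Hoxb1* and by 6.32-fold for *Hoxb2*, and for *Hoxa2* one held no fragment. On day 2 the same genes were near the floor in both libraries: *Hoxb1* had 5 and 0 fragments, *Hoxb2* 16 and 0, *Hoxa2* 4 and 5, and *Hoxa5* 0 and 6. Library B of day 3 was still above both day 2 libraries for *Hoxb1* and *Hoxb2*.

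Other genes differed between the WT day 3 libraries in the same direction. *Cdx2*, a caudal homeobox factor, was at 14.1 FPKM in A and 0.494 FPKM in B, and *Sox2*, a factor of pluripotent and neural cells, at 37.2 and 3.62 FPKM. *Cdx1* was at 1.71 and 0.497 FPKM. Genes of nascent mesoderm were closer: *Mixl1* was at 21.7 and 9.52 FPKM, *Mesp1* at 6.40 and 4.50 FPKM and *Evx1* at 5.69 and 4.15 FPKM. Library A of day 3 was thus the higher for each of these genes, by the most for *Cdx2*. Other genes were higher in B, such as *Olig2*, a neural marker, at 1.68 and 6.05 FPKM. Over genes with 20 to 400 fragments, 19.8% were more than 2-fold higher in A and 11.4% in B. The part of these differences in the Hox values was not tested.

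**Figure D2:**
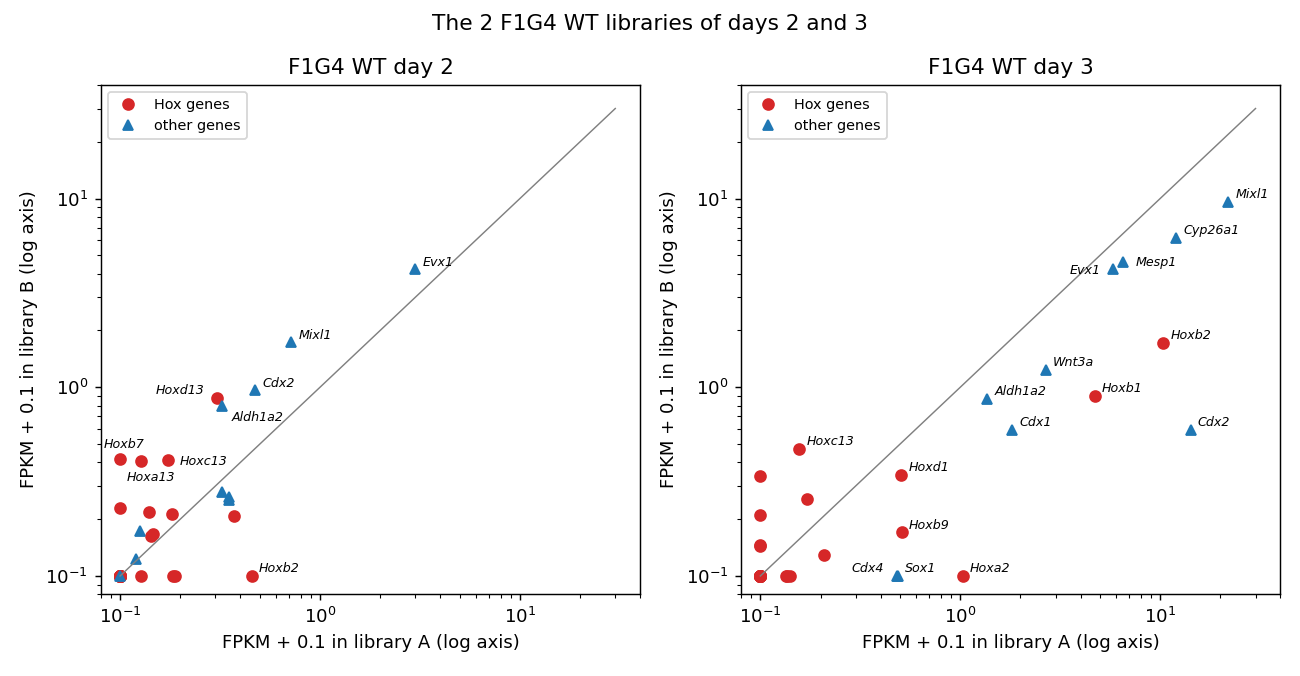
FPKM plus 0.1 in library A (horizontal) and library B (vertical) of F1G4 WT on days 2 and 3, both axes log scaled, with Hox genes as red circles and other named genes as blue triangles. On day 3 *Hoxb1*, *Hoxb2*, *Hoxa2* and *Cdx2* lie well to the side of library A, with *Hoxb2* at 10.3 and 1.63 FPKM before the addition.

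Few members other than *Hoxb1*, *Hoxb2* and *Hoxa2* were above the counting floor in WT. The highest WT mean was on day 3 for 11 members, on day 1 for 8, on day 2 for 4 and in ES for 3, and 12 members were at 0 at every WT stage. *Hoxa4* was among the latter. *Hoxd1*, an anterior gene of HoxD, was at 0.0287, 0.197, 0.190 and 0.325 FPKM from ES to day 3, and its day 3 fragments were shared between the libraries, with 22 in A and 12 in B. *Hoxd13* went the other way, with 0.349, 0.928, 0.491 and 0.0228 FPKM. Posterior genes made up 86.5% of the summed Hox level in ES and 5.35% on day 3, and anterior genes 89.2% on day 3. The posterior sum itself was 0.661 FPKM in ES and 0.575 FPKM on day 3, while the anterior sum was 0.0288 and 9.59 FPKM.

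On day 2 *Hoxb1*, *Hoxb2* and *Hoxa2*, anterior genes of HoxB and HoxA, were higher in all 3 mutant lines than in either WT library. *Hoxb2* was at 0.178 FPKM in WT, 4.94 FPKM in the Eomes KO, 2.17 FPKM in the T KO and 6.35 FPKM in the dKO. The mutant values rested on 228, 64 and 265 fragments, with intervals of 4.32 to 5.63, 1.67 to 2.77 and 5.61 to 7.16 FPKM. The folds over WT in the same table were 27.8, 11.7 and 35.8. They rest on a WT mean in which library B held no fragment, and against library A alone the log2 ratios were 3.80, 2.55 and 4.16. *Hoxb2* was the highest member in each of these columns, as in WT on day 3.

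*Hoxb1* was at 0.0437 FPKM in WT on day 2, and at 1.12, 0.692 and 1.02 FPKM in the Eomes KO, the T KO and the dKO. These came from 66, 26 and 54 fragments, and the folds over WT were 25.8, 15.2 and 23.4. Here too WT library B held no fragment, and the log2 ratios to library A alone were 3.69, 2.93 and 3.55. *Hoxa2* was at 0.0975 FPKM in WT and at 1.07, 0.809 and 0.748 FPKM in the mutants, from 54, 26 and 34 fragments. Its folds were 11.1, 8.06 and 7.76. For *Hoxb1*, *Hoxb2* and *Hoxa2* each mutant value lay above both WT day 2 libraries.

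*Hoxa5* was at 0.0643 FPKM in WT on day 2, at 1.32 FPKM in the Eomes KO (70 fragments) and at 0.853 FPKM in the dKO (41 fragments). In the T KO it was at 0.0883 FPKM, from 3 fragments, which lay between the WT libraries. The interval was 1.03 to 1.66 FPKM in the Eomes KO and 0.0182 to 0.258 FPKM in the T KO. These did not overlap, but they cover counting error only, with 1 library per line. *Hoxa4*, its neighbour, had no fragment in any WT column and 32, 4 and 32 fragments in the Eomes KO, the T KO and the dKO, or 0.739, 0.145 and 0.818 FPKM. *Hoxa3* had 23, 4 and 16 fragments, or 0.319, 0.0869 and 0.246 FPKM. For these 3 central and anterior genes of HoxA, the T KO on day 2 was the lowest of the mutant lines.

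By the 2-fold call with more than 1 FPKM, 4 members were higher in the Eomes KO on day 2 (*Hoxa2*, *Hoxa5*, *Hoxb1* and *Hoxb2*) and none was lower, where 1.53% of all genes were called higher and 1.91% lower. In the T KO 1 member was called higher, *Hoxb2*, and none lower, against 2.64% and 4.6% of all genes. In the dKO *Hoxb1* and *Hoxb2* were called higher and none lower, against 1.59% and 2.05% of all genes. *Hoxa5* and *Hoxa2* in the dKO and *Hoxb1* and *Hoxa2* in the T KO stayed under 1 FPKM and for this reason were not called.

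**Figure D3:**
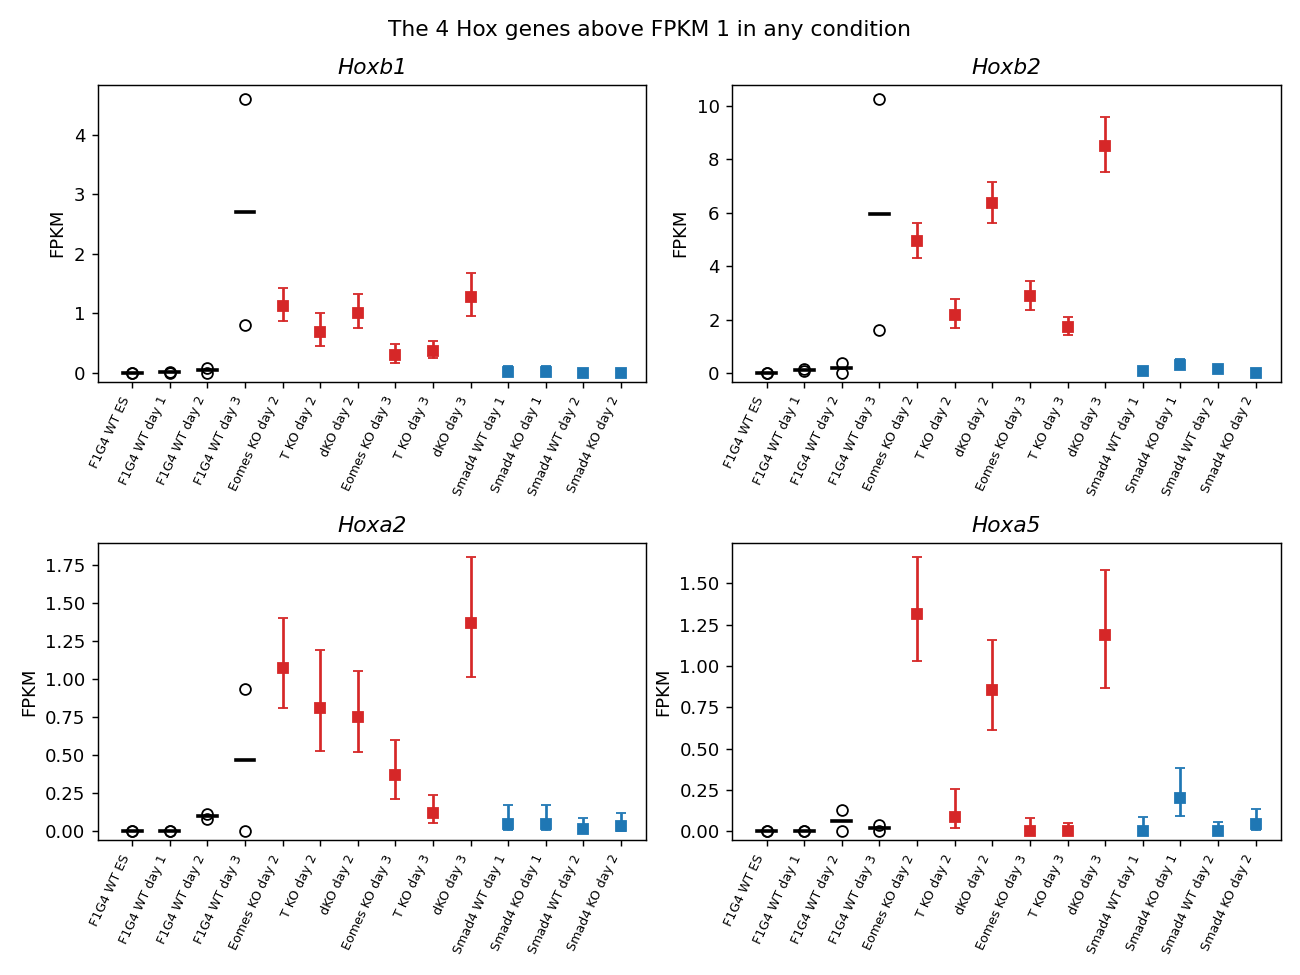
FPKM of *Hoxb1*, *Hoxb2*, *Hoxa2* and *Hoxa5* by group, with open circles for the 2 WT libraries, black bars for their mean and squares with 95% Poisson intervals for the mutant and Smad4-line libraries (red for Eomes KO, the T KO and the dKO, blue for the Smad4 line). All 4 genes are near 0 in WT on day 2 and above it in the Eomes KO and the dKO, and the WT day 3 circles of *Hoxb2* lie apart at 10.3 and 1.63 FPKM.

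Since most members stayed under 1 FPKM, a lower call was added after the values were seen: more than 0.1 FPKM in either group and more than 2-fold after adding 0.1 FPKM to both. On day 2 it gave 14 members higher and 0 lower in the Eomes KO, where 3.33% of all genes were higher and 3.5% lower. In the T KO 10 were higher and 1, *Hoxa13*, lower, against 4.98% and 6.43% of all genes. In the dKO 15 were higher and 0 lower, against 3.28% and 3.51%. With 38 members, each of the 3 counts of higher members was a larger share than that over all genes.

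The genes higher by the lower call on day 2 belonged mainly to HoxA and HoxB, and the share of higher genes was largest among the anterior ones. In the Eomes KO they were 6 HoxA, 6 HoxB, 1 HoxC and 1 HoxD gene. In the T KO they were 4, 4, 0 and 2, and in the dKO 6, 7, 1 and 1. By position, 5 of 7 anterior genes were higher in the Eomes KO, 5 in the T KO and 6 in the dKO. Of the 15 central genes 7, 3 and 6 were higher, and of the 16 posterior genes 2, 2 and 3. The median log2 ratio (FPKM plus 0.1) of the anterior genes was 2.15, 2.18 and 2.11 in the Eomes KO, the T KO and the dKO, that of the central genes was 0.80, 0.35 and 0.48, and that of the posterior genes was 0, 0 and 0.26. Over all genes it was 0 in each, and over all 38 members it was 0.40, 0.39 and 0.53.

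The additional members in the low range did not all follow the same pattern across the lines. *Hoxb3* was called higher in all 3, with 0.531, 0.730 and 0.530 FPKM in the Eomes KO, the T KO and the dKO. So were *Hoxa7*, at 0.163, 0.142 and 0.140 FPKM, the posterior gene *Hoxb13*, at 0.188, 0.252 and 0.416 FPKM, and *Hoxa4*. *Hoxa4*, *Hoxa7* and *Hoxb13* were at 0 FPKM in WT on day 2. *Hoxa10*, a posterior gene, was at 0.586 FPKM in the Eomes KO, 0.0767 FPKM in the T KO and 0.265 FPKM in the dKO. *Hoxb4* had 25, 0 and 16 fragments, or 0.344, 0 and 0.243 FPKM. *Hoxd1* had 11, 19 and 33 fragments, or 0.209, 0.564 and 0.692 FPKM, and was called higher in the T KO and the dKO.

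**Figure D4:**
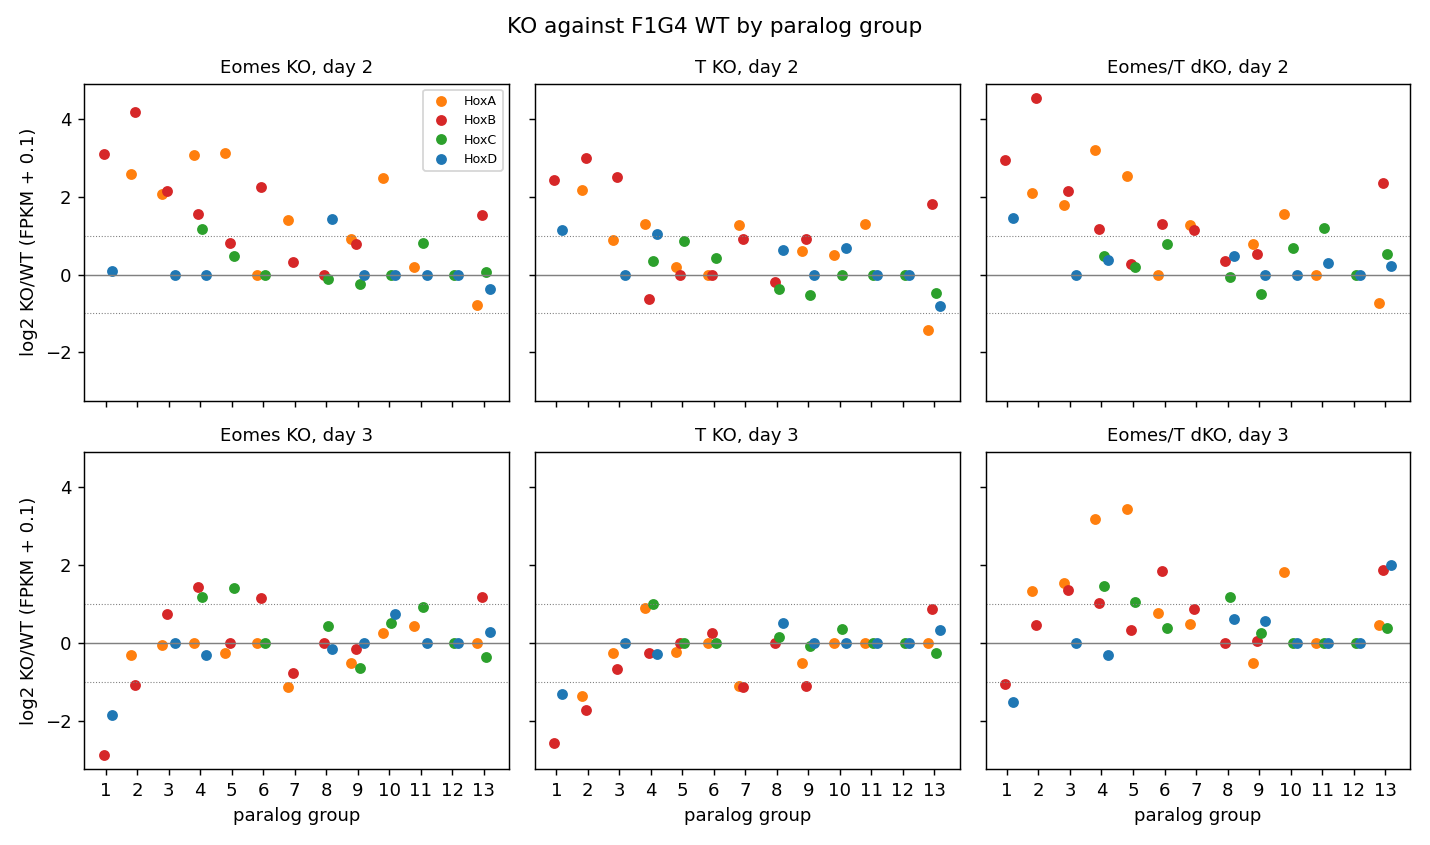
Log2 ratio of mutant to WT (FPKM plus 0.1) of each Hox gene against its paralog group, in 6 panels for the 3 mutant lines on days 2 and 3, coloured by cluster, with dotted lines at 2-fold. On day 2 the anterior genes (groups 1 to 3) have medians of 2.15, 2.18 and 2.11 in the Eomes KO, the T KO and the dKO, and central genes lie above the upper line as well, while on day 3 the panels differ in direction.

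On day 3 the mutant lines differed from WT in different directions. *Hoxb1*, at 2.71 FPKM in WT, was at 0.296 FPKM in the Eomes KO (15 fragments, interval 0.166 to 0.488), at 0.373 FPKM in the T KO (29 fragments, interval 0.250 to 0.536) and at 1.28 FPKM in the dKO (54 fragments, interval 0.965 to 1.68). The log2 ratio to WT was -3.25, -2.87 and -1.12. The Eomes KO and T KO values lay below both WT libraries, also below library B alone, with log2 ratios to B of -1.51 and -1.12. The dKO value lay between the libraries.

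*Hoxb2* was at 5.95 FPKM in WT on day 3, at 2.87 FPKM in the Eomes KO, at 1.74 FPKM in the T KO and at 8.52 FPKM in the dKO. The log2 ratio to WT was -1.11, -1.78 and 0.47. All 3 values lay between the WT libraries, so the direction turned on which library was used: the log2 ratio to library A was -1.89, -2.57 and -0.32, and that to library B 0.74, 0.08 and 2.33. *Hoxa2* was at 0.369, 0.120 and 1.36 FPKM against 0.466 FPKM in WT. The Eomes KO and T KO values were within the WT libraries, and the dKO value, from 49 fragments, was above both.

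*Hoxa5* parted the dKO from the single mutants on day 3. It had 45 fragments in the dKO, or 1.18 FPKM with an interval of 0.864 to 1.58. In the Eomes KO it had 0 fragments, which allows up to 0.0805 FPKM, and in the T KO 0 fragments, which allows up to 0.0525 FPKM. WT was at 0.0184 FPKM, with 2 and 0 fragments. *Hoxa4* followed the same order, with 25 fragments (0.808 FPKM) in the dKO, 0 in the Eomes KO and 5 (0.0875 FPKM) in the T KO. *Hoxa3* had 13, 1 and 0 fragments, or 0.253, 0.0161 and 0 FPKM. The intervals of *Hoxa5* in the dKO and in the single mutants did not overlap. They cover counting error only, and each mutant value was 1 library.

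Of the 38 members, the call at 1 FPKM gave *Hoxb1* and *Hoxb2* lower and none higher in the Eomes KO on day 3, where 4.27% of all genes were lower and 3.5% higher. The same 2 were lower in the T KO and none was higher, against 1.8% and 0.97% of all genes. In the dKO *Hoxa2* and *Hoxa5* were called higher, against 2.58%, and *Hoxb1* lower, against 2.58%. The lower calls rested on WT library A. With library B alone as WT no member was called in the Eomes KO or T KO. *Hoxb1* was still more than 2-fold below library B in both, with log2 ratios of -1.51 and -1.12. It was not called because its values were under 1 FPKM in library B and in these mutants. In the dKO *Hoxa2*, *Hoxa5* and *Hoxb2* were called higher and none lower with library B alone. With library A alone, *Hoxa5* was still called higher in the dKO and *Hoxb1* lower, and *Hoxa2* was not called, so the *Hoxa2* call rested on library B, which had none of its fragments.

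By the lower call, 5 members were higher and 4 lower in the Eomes KO on day 3, where 6.92% of all genes were higher and 6.01% lower. The higher ones were *Hoxb4*, *Hoxb6*, *Hoxb13*, *Hoxc4* and *Hoxc5*, and the lower ones *Hoxa7*, *Hoxb1*, *Hoxb2* and *Hoxd1*. In the T KO 0 were higher and 7 lower, against 2.47% and 3.62% of all genes, but without WT day 3 library A 2 were higher and 3 lower, and without library B 0 and 5. In the dKO 13 were higher and 2 lower, against 5.38% and 4.31%, and over the members with known fragments 1 was lower without library A. The 13 were 5 HoxA, 4 HoxB, 3 HoxC and 1 HoxD gene, and the 2 lower ones were *Hoxb1* and *Hoxd1*. The 13 in the dKO were 3 anterior, 7 central and 3 posterior genes, whereas the 7 lower in the T KO were 4 anterior, 2 central and 1 posterior. The median log2 ratio of all 38 members was 0.46 in the dKO on day 3 and 0 in the other mutants, with 0 over all genes in each.

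*Hoxd1* was the member for which all 3 mutants lay below both WT libraries on day 3. It was at 0.325 FPKM in WT, 0.0220 FPKM in the Eomes KO, 0.0718 FPKM in the T KO and 0.0531 FPKM in the dKO, from 1, 5 and 2 fragments. On day 2 it had been at 0.190 FPKM in WT and at 0.209, 0.564 and 0.692 FPKM in the mutants. *Hoxb4* was the reverse in the Eomes KO, where 23 fragments on day 3 (0.367 FPKM) exceeded both WT libraries, with 8 and 2 fragments. *Hoxd13* was at 0.398 FPKM in the dKO on day 3 and at 0.0228 FPKM in WT.

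Anterior genes made up 60.2%, 68.8% and 65.4% of the summed Hox level in the Eomes KO, the T KO and the dKO on day 2 and 67.2%, 68.1% and 67.8% on day 3. HoxB genes made up 85.6% in WT on day 3, 58.9%, 61.1% and 64.1% in the mutants on day 2, and 75.1%, 68.4% and 66.1% on day 3. HoxA genes made up 23.7% of the sum in the dKO on day 3, 7.68% in the Eomes KO and 6.04% in the T KO.

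In the Smad4 line no member was called on either day, as none exceeded 1 FPKM. On day 1, 1.08% of all genes were called higher and 1.1% lower in the KO, and on day 2 1.15% were called higher and 1.44% lower. By the lower call 3 members were higher and 3 lower in the KO on day 1, where 3.65% of all genes were higher and 3.48% lower, and 0 were higher and 6 lower on day 2, where 2.35% were higher and 2.9% lower. On day 1 *Hoxa5*, *Hoxb2* and *Hoxd8* were higher. *Hoxc13* was lower, with 0.696 FPKM (40 fragments) in WT and 0.0516 FPKM (3 fragments) in KO, as were *Hoxb7*, with 0.600 and 0.0660 FPKM (18 and 2 fragments), and *Hoxd10*. On day 2 *Hoxa10*, *Hoxb2*, *Hoxb9*, *Hoxb13*, *Hoxd1* and *Hoxd8* were lower, each from under 0.2 FPKM in WT. *Hoxd13*, the most abundant member here, had 49 fragments in Smad4 WT and 27 in Smad4 KO on day 1 and 27 and 30 on day 2. *Hoxb2* had 3 fragments in WT and 12 in KO on day 1, and 8 and 1 on day 2. *Hoxa5* had 9 fragments (0.201 FPKM) in the KO on day 1 and 3 (0.0463 FPKM) on day 2, and 0 in WT on both days. *Hoxb1* was at 0.0204 FPKM in WT and 0.0202 FPKM in KO on day 1 and at 0 in both on day 2, and *Hoxa2* was at 0.0477 and 0.0472 FPKM on day 1 and at 0.0160 and 0.0326 FPKM on day 2. No day 3 sample of this line was analysed here, so these values stop before the stage at which *Hoxb1* and *Hoxb2* were called higher in F1G4 WT.

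The Cdx genes, homeobox factors that activate central Hox genes, include *Cdx1* and *Cdx2*, which were above WT on day 2 in the 3 mutant lines. *Cdx2* was at 0.617 FPKM in WT on day 2 and at 3.65, 3.76 and 3.66 FPKM in the Eomes KO, the T KO and the dKO. On day 3 it was at 7.30 FPKM in WT and at 0.439, 0.498 and 1.96 FPKM in the mutants. This WT mean joins 14.1 FPKM in library A and 0.494 FPKM in library B, so against library B alone the single mutants were close to WT and the dKO was above it. *Cdx1* was at 0.205 FPKM in WT on day 2 and at 1.03, 0.789 and 1.38 FPKM in the mutants, and on day 3 at 1.10 FPKM and at 0.538, 0.504 and 1.44 FPKM. *Cdx4* was at 0.201 FPKM in WT on day 2 and at 0.598, 0.208 and 0.832 FPKM, and on day 3 at 0.194 FPKM and at 0, 0 and 0.279 FPKM. The 3 ParaHox genes other than the Cdx genes (*Gsx1*, *Gsx2* and *Pdx1*) did not exceed 0.166 FPKM in any group. Of 12 genes listed as posterior axis regulators (Cdx, Wnt and Fgf genes, *T* and *Gdf11*), 2 were called higher and 1 lower in the Eomes KO on day 2, 2 and 2 in the T KO and 2 and 2 in the dKO. On day 3 the counts were 1 and 9, 2 and 7, and 1 and 6, and in the Smad4 KO 0 and 5 on each day. The lower counts of the T KO and the dKO include *T* itself on both days, which follows from its deletion. In F1G4 WT on day 3 against day 2, 7 of them were higher and 1, *Fgf4*, lower.

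*Meis2*, encoding a homeodomain partner of Hox proteins, was at 3.18 FPKM in WT on day 2 and at 16.6, 11.1 and 16.6 FPKM in the Eomes KO, the T KO and the dKO. On day 3 it was at 7.88 FPKM in WT and at 22.7, 8.5 and 20.3 FPKM. *Meis1* was at 0.463 FPKM in WT on day 3 and at 1.65, 0.559 and 2.25 FPKM. Of the 9 listed partners (Pbx, Meis and Pknox), 1, 2 and 2 were called higher on day 2 in the Eomes KO, the T KO and the dKO and none lower. On day 3, 3, 0 and 2 were called higher and 0, 1 and 0 lower.

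Of 15 genes of retinoic acid signalling, 1, 1 and 0 were called higher on day 2 and none lower. On day 3, 3 were higher and 3 lower in the Eomes KO, 2 and 3 in the T KO, and 3 and 2 in the dKO. *Aldh1a2*, which makes retinoic acid, and *Cyp26a1*, which degrades it, were lower in all 3. *Cyp26a1* was at 9.02 FPKM in WT on day 3 and at 1.22, 0.420 and 0.888 FPKM in the mutants. *Rarb*, a retinoic acid receptor, was at 0.141 FPKM in WT and at 2.32, 0.894 and 1.45 FPKM. In the Smad4 KO on day 2, 2 genes of the list were higher and 2 lower, among them *Cyp26a1* at 3.20 FPKM against 0.399 FPKM in Smad4 WT.

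Genes beside the clusters and noncoding genes within them were read from lists of 13 and 16. *Evx1*, next to *Hoxa13* and a gene of the primitive streak, was at 4.92 FPKM in WT on day 3 and at 0.0854, 0.372 and 0.326 FPKM in the Eomes KO, the T KO and the dKO. It was not called lower on day 2, with 3.5 FPKM in WT and 3.80, 7.53 and 3.22 FPKM in the mutants. *Halr1*, a noncoding gene of HoxA, was at 14.1 FPKM in ES and 0.13 FPKM on day 2 in WT, and at 1.91, 0.497 and 2.53 FPKM in the mutants on day 2. *Hotairm1*, another, was at 0.279 FPKM in WT on day 3 and at 0.809, 0.634 and 2.73 FPKM. *Halr1* was called higher in the Eomes KO on day 2, *Hotairm1* and *Halr1* in the dKO on day 2 and *Hotairm1* in the dKO on day 3. Of 17 Polycomb and trithorax genes at most 1 was called in any mutant comparison. *Ezh2* was lower in the T KO on day 2, at 18.1 FPKM against 53.5 FPKM in WT. On day 3 *Kmt2a* was higher in the Eomes KO, at 8.08 against 2.93 FPKM, and *Ezh1* lower in the dKO, at 2.55 against 5.70 FPKM. *Cbx8* was lower in the Smad4 KO on day 1, at 0.721 against 1.64 FPKM in Smad4 WT. Their part in the Hox values was not tested.

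**Figure D5:**
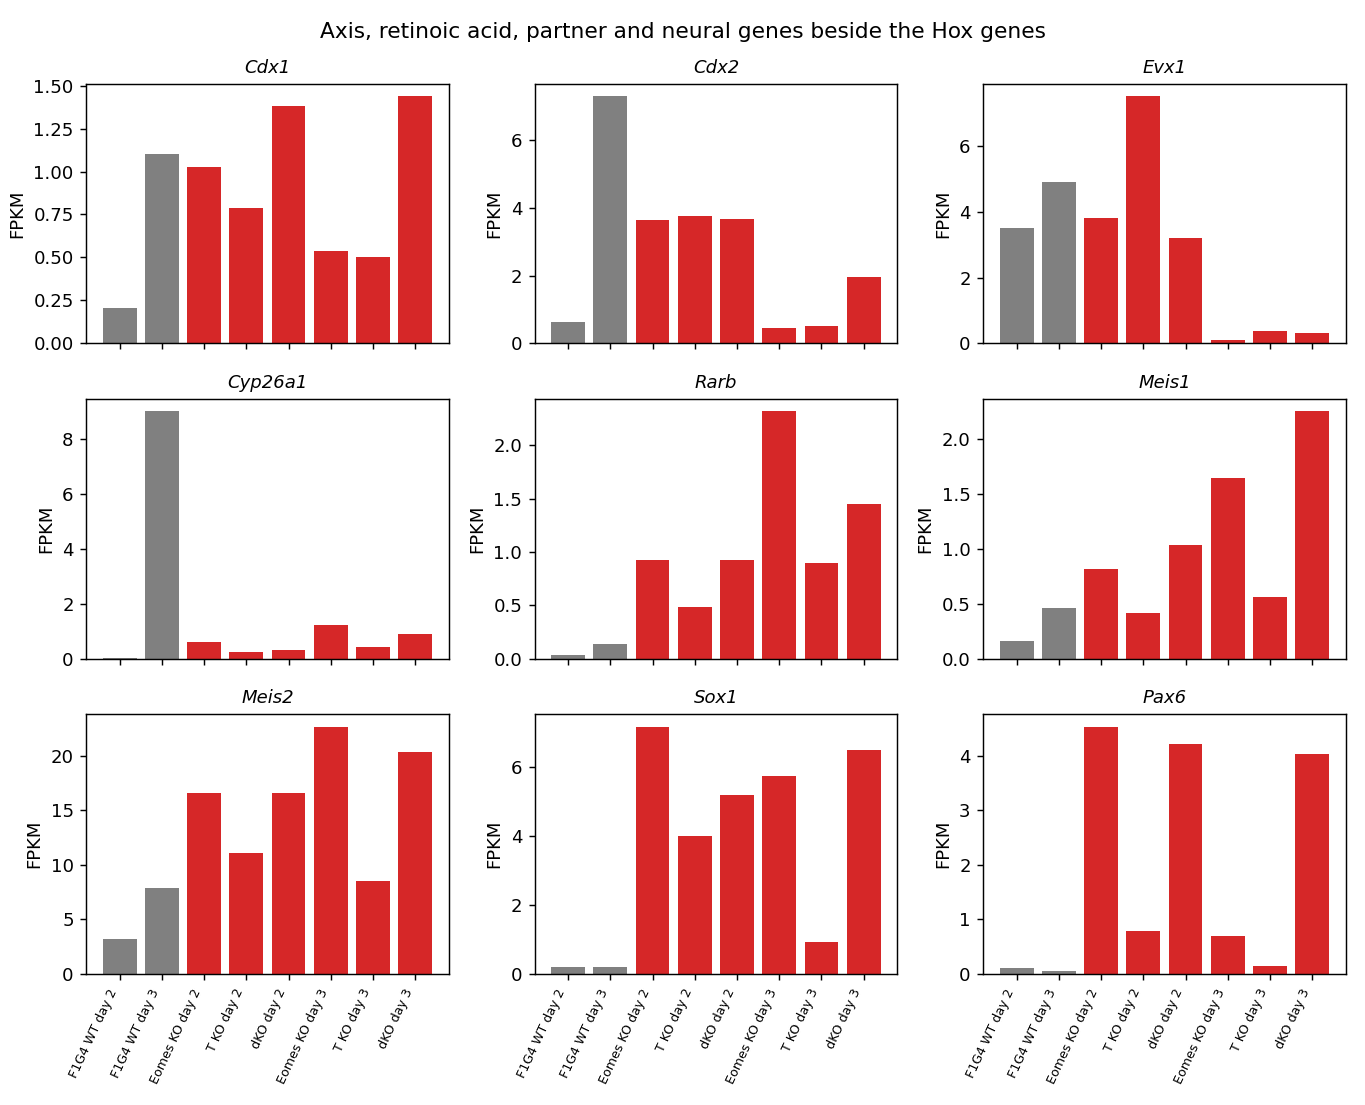
FPKM of 9 genes linked to Hox regulation or to neural cells in WT on days 2 and 3 (grey bars, mean of 2 libraries) and in the 6 columns of Eomes KO, the T KO and the dKO (red bars, 1 library each). *Cdx2* is higher than WT in each mutant on day 2 and lower than the WT mean of 7.30 FPKM on day 3, which joins libraries at 14.1 and 0.494 FPKM, and *Sox1* and *Pax6* are near 0 in WT.

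Markers of mesoderm and of neural cells also differed between WT and the mutants. The summed level of 6 nascent mesoderm markers, which include the deleted genes *T* and *Eomes*, was 71.3 FPKM in WT on day 2 and 420.6 FPKM on day 3, against 31.4, 46.4 and 11.0 FPKM in the Eomes KO, the T KO and the dKO on day 2 and 6.08, 25.1 and 13.3 FPKM on day 3. Without *T* and *Eomes* the sum was 18.3 FPKM in WT and 6.67, 15.1 and 6.97 FPKM in the mutants on day 2, and 81.3 FPKM and 1.34, 17.3 and 11.0 FPKM on day 3. All 6 were called lower in each mutant on day 3, and in the T KO on day 2 *Eomes* and *Evx1* were called higher. The neural markers *Sox1* and *Pax6* were at 0.202 and 0.101 FPKM in WT on day 2. *Sox1* was at 7.17, 4.01 and 5.17 FPKM in the mutants on day 2 and at 5.75, 0.914 and 6.49 FPKM on day 3. *Pax6* was at 4.54, 0.784 and 4.23 FPKM on day 2 and at 0.691, 0.141 and 4.03 FPKM on day 3. *Pax6* on day 3 was thus highest in the dKO, as *Hoxa5*, *Hoxa4* and *Hoxa2* were. Another neural marker, *Olig2*, went the other way, with 2.53 FPKM in the dKO on day 3 against 3.87 FPKM in WT.

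The whole list of 4 neural markers summed to 7.24 FPKM in WT and 16.8, 17.8 and 13.7 FPKM in the mutants on day 2, and to 4.11 FPKM and 10.4, 5.15 and 13.1 FPKM on day 3. *Neurog2*, a defining marker of neural precursors, did not exceed 0.0522 FPKM in any group, and *Olig2* was the largest part of the sum in several groups. On day 2 *Olig2* was at 6.94 FPKM in WT and at 5.10, 13.0 and 4.29 FPKM in the Eomes KO, the T KO and the dKO. In the Smad4 KO *Sox1* and *Pax6* were called higher on both days, with 3.58 and 10.4 FPKM on day 2. No Hox gene could be called there, as none exceeded 1 FPKM in that line. By the lower call 3 Hox genes were higher and 3 lower on day 1, and 0 and 6 on day 2. Markers of fibroblasts, the feeder cell type, summed over 9 genes to 2.18 FPKM in WT on day 3 and to 5.18, 1.98 and 3.70 FPKM in the mutants. The part of each of these cell types in the Hox values was not tested.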

How the data were processed

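Total RNA had been made into strand-specific paired-end libraries (ScriptSeq v2). The authors trimmed reads with cutadapt 2.9, aligned them to mm10 with HISAT2 2.1.0 and SAMtools 1.9, and used Cuffdiff 2.2.1 with RefSeq genes, with correction for multiply mapped reads and sequence bias and without effective length correction, to give the deposited FPKM values, 1 per gene and condition. Cuffdiff's strand setting is not given in the sources used here, so antisense overlaps (*Hoxa3*, *Hoxa11*, *Hoxb2* and *Hoxb3*) leave those values uncertain. The 9 tables were normalized separately and 0 columns belonged to other samples. The depth of each library is known only through the worth of 1 fragment.

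From these values, ratios were taken within tables (Python 3.11.15, numpy 2.4.6, pandas 2.3.3, matplotlib 3.10.9) in 12 comparisons. A call needed more than 1 FPKM in either group and an absolute log2 ratio above 1 with no pseudocount. Medians used a pseudocount of 0.1 FPKM, which understates the change of low genes. No test was made: each mutant group was 1 library, and 2 against 2 WT libraries are too few for an exact permutation test to reach significance. Fragments were recovered from the step between low values of single-transcript genes with a relative tolerance of 1e-05. A length within 15% of the RefSeq one was accepted where it alone gave whole numbers in all 1-library columns. Between 79.3% and 82.2% of the genes checked came out whole. A pair of WT fragment numbers was kept only if it was the single one that matched in every table. The call at 1 FPKM and the recovery of fragment numbers at known transcript lengths were checked on simulated data. The other steps, among them the fitting of lengths, were not.

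Groups were taken from the sample labels. Members above 1 FPKM in any group were described in every group, those between 0.1 and 1 FPKM were named with their highest value, and of each companion list the genes with the highest values or called in a mutant were named, at most 3 each. Further genes were named after their values were seen. The members and lists were chosen with earlier results of these data known. Alternatives were other FPKM minimums, pseudocounts, scaling to TPM or to a median ratio of 1, leaving out the highest member, and leaving out each WT library.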

Additional observations from a re-analysis of the deposited data

Results flagged for a closer look

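In 4 cases a member was called in one direction on day 2 and in the other on day 3 in the same mutant line, and the difference between the days was not tested. *Hoxb1* had a log2 ratio to WT of 4.69 on day 2 and -3.25 on day 3 in the Eomes KO, and of 4.55 and -1.12 in the dKO. *Hoxb2* had 4.80 and -1.11 in the Eomes KO, and 3.55 and -1.78 in the T KO. The mutant levels themselves differed less between the days than those of WT: *Hoxb2* was at 4.94 and 2.87 FPKM in the Eomes KO and at 0.178 and 5.95 FPKM in WT, in tables normalized separately. With WT day 3 library B alone, *Hoxb2* was not lower than WT in either mutant line, with log2 ratios of 0.74 in the Eomes KO and 0.08 in the T KO, and *Hoxb1* was not lower in the dKO, with 0.62.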

How the results depend on the processing

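No called value changed sign under an alternative that kept both WT libraries. In TPM the uncalled log2 ratios of *Hoxa2* and *Hoxb1* in the Smad4 KO on day 1 went from -0.016 to 0.049. Scaling each table to a median ratio of 1 left every count, median and named gene within its tolerance. No paired analysis was possible because the tables hold 1 column per condition and carry no replicate numbers. With no FPKM minimum, the number of members called was 6 on day 1 against ES, 4 on day 2 against day 1, 7 on day 3 against day 2 and 7 on day 3 against ES, 5 and 6 in the Smad4 KO on days 1 and 2, 10 and 8 in the Eomes KO on days 2 and 3, 10 and 8 in the T KO, and 12 and 10 in the dKO. With a minimum of 0.5 FPKM it was 1 on day 1 against ES, 2 in the Smad4 KO on day 1, and 7, 6 and 7 in the Eomes KO, the T KO and the dKO on day 2. With a pseudocount of 1 it was 1 in the Eomes KO on day 3 and 1 in the dKO on each day. Rescaled to TPM it was 1 on day 1 against ES, 2 in the Smad4 KO on day 1, 1 in the Eomes KO on day 3, and 5 and 6 in the T KO and dKO on day 2. TPM shifted all log2 ratios by -0.41 (dKO day 2) to 0.28 (Eomes KO day 3).

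Without one WT library at a time, the members called numbered 1 to 2 on day 3 against day 2 and 1 to 2 on day 3 against ES, 0 to 2 in the Eomes KO and 0 to 2 in the T KO on day 3, and 2 to 3 in the dKO on day 3. The lowest numbers came without WT day 3 library A, where *Hoxb1* was lost in both WT comparisons, except in the dKO, where it gave 3. The day 2 mutant counts stayed at 4, 1 and 2.

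The median log2 ratio of the members in the Eomes KO, the T KO and the dKO on day 2 and the dKO on day 3 was 1.33, 1.29, 1.92 and 1.01 with a pseudocount of 0.01, 0.068, 0.044, 0.097 and 0.082 with 1, and 0.58, 0.77, 0.71 and 0.59 in TPM. Members above 0.5 FPKM numbered 1 in WT on day 1, 7, 5 and 8 in the Eomes KO, the T KO and the dKO on day 2, and 3 in Smad4 WT on day 1. Members above 2 FPKM numbered 1 in the Eomes KO and 1 in the dKO on day 2, and 0 in the T KO and 1 in the dKO on day 3. Members above 1 TPM numbered 1 in WT on day 1 and 1 on day 2, 5 and 6 in the T KO and dKO on day 2, and 3 in Smad4 WT on day 1. Without the highest member, the anterior share of the Hox sum was 75.8% in WT on day 3, 37.5%, 55.8% and 39.0% in the Eomes KO, the T KO and the dKO on day 2, and 34.3%, 35.6% and 37.7% on day 3. The HoxB share became 67.8%, then 35.5%, 44.7% and 36.6%, then 50.1%, 36.2% and 34.4%. Low fragment numbers limit every member under 1 FPKM, and 1 library per mutant leaves the spread between mutant samples unknown.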
